A study of Mus musculus with 3 samples.

Results

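The subject is the set of genes that encode the proteins of the cytosolic ribosome, measured by RNA sequencing in mouse T-helper 1 (Th1) cells. A gene was taken when it was protein-coding and its symbol was Rpl or Rps followed by a number, or Rpsa, Rplp0, Rplp1 or Rplp2, with the Rps6k kinases left out. This gave 84 genes of the 50600 in the tables and of 21764 protein-coding genes, 52 of the large subunit and 32 of the small subunit. Of these, 77 are the canonical genes and 7 are paralogues, named after a canonical gene with an added l. Th1 cells are CD4 helper T cells that make interferon-gamma. The 3 libraries, replicates 1, 2 and 3, form 1 group of primary cells of strain C57BL/6NJ, with no genetic change or added agent named. They share a donor entry, carry biosample entries of their own, and have no recorded age or sex. The labels link a CD4 T cell differentiation protocol and the file headers name a 2 hr time point. Nothing states whether the cultures came from separate animals, so the spread between replicates may be technical in part.

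A cytosolic ribosome holds a large and a small subunit, and each subunit carries close to equal copy numbers of its proteins. The genes for these proteins are dispersed over the genome and are transcribed at high levels. Their mRNAs begin with a run of pyrimidines, the 5′ terminal oligopyrimidine (TOP) motif, through which the kinase mTOR and the protein Larp1 control their translation. T cells that are activated grow and enlarge their pool of ribosomes. Cytosolic ribosomal protein genes also have many processed pseudogenes, and their introns often hold small nucleolar RNA genes.

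The sequences at the transcription start are shown for 8 members, since these genes give the highest and lowest levels, a paralogue pair and both kinds of strand overlap described below. Each line holds 25 bases before and 25 bases from the start that RefSeq gives on GRCm38.p6, read 5′ to 3′ on the gene's strand, with the longest run of C and T that begins with C in capitals, or the first of them where 2 runs are equally long.

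Rps24: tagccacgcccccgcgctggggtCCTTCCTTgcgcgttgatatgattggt
Rps15: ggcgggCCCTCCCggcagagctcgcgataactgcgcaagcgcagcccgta
Rps27: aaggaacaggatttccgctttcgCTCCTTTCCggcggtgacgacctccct
Rps27l: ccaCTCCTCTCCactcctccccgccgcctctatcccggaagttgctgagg
Rpl35: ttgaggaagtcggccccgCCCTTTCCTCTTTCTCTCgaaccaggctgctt
Rps28: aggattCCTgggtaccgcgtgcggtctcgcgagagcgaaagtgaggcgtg
Rpl13a: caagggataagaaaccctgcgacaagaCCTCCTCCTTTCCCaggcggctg
Rpl24: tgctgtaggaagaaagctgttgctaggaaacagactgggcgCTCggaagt

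The windows lie at chr14:24490653-24490702, plus strand (Rps24), chr10:80292406-80292455, plus strand (Rps15), chr3:90213624-90213673, minus strand (Rps27), chr9:66946061-66946110, plus strand (Rps27l), chr2:39005107-39005156, minus strand (Rpl35), chr17:33824538-33824587, minus strand (Rps28), chr7:45128721-45128770, minus strand (Rpl13a) and chr16:55966250-55966299, plus strand (Rpl24). The run of Rpl35 is 18 bases long and that of Rpl13a 14, against 3 bases in Rps28 and in Rpl24. Rps27 holds 1 run of 9 bases, which begins 2 bases before the start. Its paralogue Rps27l holds 2 runs of that length, which begin 22 and 12 bases before the start, and Rps28 holds 2 runs of 3. RefSeq promoter windows of 250 bases before to 50 after the start were held for 64 of the 84 members and for 27025 genes in all. The ETS factor motif CCGGAAG, searched on both strands, was in windows of 26 of the 64 members (40.6%), against 9.93% of all genes. The letters CTCTTTC on the gene strand were in 13 of the 64 (20.3%), against 4.60% of all genes. The YY1 motif AAGATGG was in 10 of the 64 on either strand (15.6%), against 7.28%, and TATAAA on the gene strand was in 6 (9.38%), against 9.77%. A match gives letters in a window and no occupancy by any factor. CCGGAAG and AAGATGG can overlap through the letters AAG, so 1 place can hold both.

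Total counts were 4442901, 3123869 and 2950658 in replicates 1, 2 and 3. The read pairs were assigned under a strand setting of 1, and whether that setting fits the library orientation is not given in the sources used here. All levels below, of members with and without a gene on the other strand, are counts on the strand so assigned. Reads lost to or gained from an opposite gene were not measured. Of 16 pairs of a member and an opposite gene with more than 30 counts, 5 had more counts on the opposite gene in every library. The fit of the strand setting was not tested. Protein-coding genes took 78.2%, 62.7% and 68.0% of counts in replicates 1, 2 and 3, and rRNA genes 0.993%, 3.68% and 1.86%. Genes with an exon that overlaps an exon on the other strand took 55.1%, 69.1% and 67.3%. Replicates 1 and 2 therefore stood at opposite ends of the range in each, and values are given by replicate below. The 8 T cell markers all had counts, at a median of 245.6 ± 90.4 TPM (SD, n = 3). TPM, the count per exon base scaled to a fixed sum per library, was computed here from the counts and the exon length in the files. Of the 5 Th1 markers all had counts, but Ifng, the cytokine that defines the fate, had 1, 2 and 0 counts and Tbx21, its transcription factor, 19, 7 and 11. In the B cell, NK and erythroid lists 3 of 4, 2 of 3 and 5 of 6 genes had no count in any library, and in the myeloid list 3 of 6. The B cell list summed to 27.0, 48.7 and 33.6 TPM in replicates 1, 2 and 3, the NK list to 0.0636, 0.52 and 0 TPM and the erythroid list to 2.09, 4.88 and 6.62 TPM. The CD8 markers summed to 10.7, 5.90 and 3.97 TPM in replicates 1, 2 and 3. Csf1r alone of the myeloid genes was high, at 157.6 ± 25.3 TPM (SD, n = 3), and it is an opposed gene.

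On the strand as assigned, ribosomal protein genes as a set stood high in TPM. They took 255511 counts in replicate 1, 80530 in replicate 2 and 119016 in replicate 3. As shares of all counts these were 5.75% (95% Wilson interval 5.73 to 5.77), 2.58% (2.56 to 2.60) and 4.03% (4.01 to 4.06), and the mean was 4.12% ± 1.59 (SD, n = 3). The intervals cover counting error only. The median member stood at 679, 226 and 404 TPM in replicates 1, 2 and 3, against 6.19, 3.81 and 3.86 TPM for protein-coding genes with a count. The members summed to 79656, 29804 and 49794 TPM. In every library 81 members were at 1 TPM or more and 68 at 100 TPM or more, while 496 protein-coding genes reached 100 TPM in every library. The canonical genes lay at a median percentile of 99.5 among protein-coding genes by mean TPM, and the lowest was at 85.8. The 78 mitochondrial ribosomal protein genes (Mrpl and Mrps), which serve translation inside mitochondria, had a median of 17.1, 7.21 and 9.17 TPM.

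**Figure D1:**
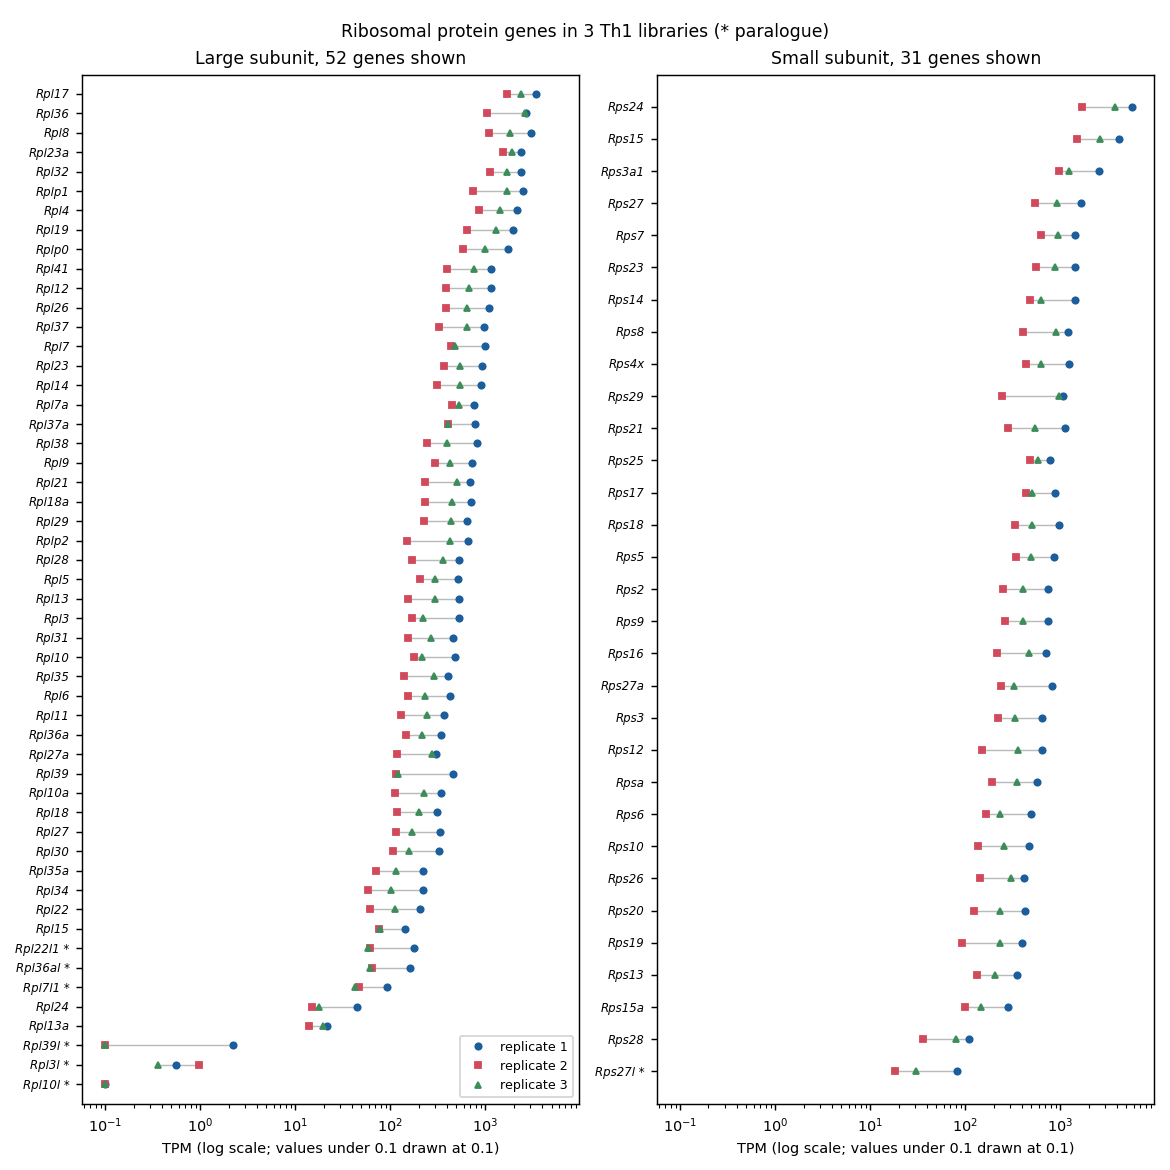
Levels of ribosomal protein genes in TPM on a log scale, large subunit left and small subunit right, ordered by the mean, with 1 marker for each replicate and a grey line from the lowest to the highest. Over the whole set, replicate 2 is the lowest and replicate 1 the highest in 78 of the 81 members with 10 or more counts. Summed TPM of all protein-coding genes has the same order of replicates.

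The small subunit held the 2 highest genes. Rps24, whose human gene is mutated in Diamond-Blackfan anaemia, had 5692, 1704 and 3757 TPM in replicates 1, 2 and 3, from 10464, 2685 and 5358 counts. Rps15, needed for export of small subunit precursors from the nucleus, had 4175, 1517 and 2636 TPM. Both were highest in replicate 1 and lowest in replicate 2. Rps3a1 had 1588 ± 846 TPM and Rps27 had 1040.2 ± 559 (SD, n = 3). Rps24 lies on chromosome 14 from 24490681 to 24496146 and Rps15 on chromosome 10 from 80292453 to 80294114, both on mm10 as the files give them.

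In the large subunit Rpl17, which lies near the exit of the peptide tunnel, was highest, with 3395, 1712 and 2361 TPM in replicates 1, 2 and 3. Rpl36 had 2667, 1044 and 2637 TPM, so that replicates 1 and 3 nearly coincided while replicate 2 was lowest. Rpl8, a protein near the peptidyl transferase centre, had 2004 ± 981 TPM (SD, n = 3), Rpl23a, near the exit of the tunnel, 1941 ± 415, and Rpl32 1742 ± 638. The SDs were larger than the gaps between neighbouring genes in this order. The stalk proteins, which recruit the GTPase factors, were unequal on this scale. Rplp1 had 1634 ± 866 TPM, its scaffold Rplp0 1110 ± 589 and Rplp2 413 ± 255 (SD, n = 3). Rpsa, which also serves as a laminin receptor, had 375 ± 191 TPM.

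Rpl13a and Rpl24 were the lowest canonical genes by a wide margin. Rpl13a had 21.8, 14.1 and 19.5 TPM in replicates 1, 2 and 3, from 101, 56 and 70 counts. Rpl24 had 44.4, 15.0 and 17.7 TPM, from 100, 29 and 31 counts. In both genes a large part of the exon bases is shared with another gene on the same strand. In Rpl24 484 of 1030 bases are shared with Gm28037, a processed transcript, and in Rpl13a 621 of 2114 with Gm45713. By the file headers no option was set to count reads that fall in more than 1 gene, and the 2 overlapping genes had 0 counts in every library. The part of the overlap in these levels was not tested. Counting all genes on the same strand, small RNA genes among them, 47.0% of exon bases were shared in Rpl24 and 35.4% in Rpl13a. Only these 2 members had 30% or more by that count. In the small subunit Rps28, an opposed gene, was the lowest canonical gene, with 110.5, 36.4 and 80.5 TPM. Above it came Rps15a with 178 ± 97.0 TPM, Rps13 with 232 ± 113 and Rps19, whose human gene is the most often mutated in Diamond-Blackfan anaemia, with 241 ± 151 (SD, n = 3).

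The order within the set depended on the length used. The files' exon length joins all exons of a gene, and in the canonical genes its median was 1734 bases, against 851 for 1 principal transcript of a later GENCODE release. With the principal transcript, chosen as a scale after the data were seen, Rps15 led with 2766 ± 1247 TPM (SD, n = 3), followed by Rpl32 with 2572 ± 863 and Rps27 with 2483 ± 1259. Rps24 went to rank 12 with 1529 ± 780 TPM, since its principal transcript of 1613 bases is longer than its 840 exon bases in the files. Rps19 went up to 1150 ± 690 TPM, since 4685 exon bases are replaced by 774. The stalk genes lay closer together on this scale. Rplp1 had 1291 ± 651 TPM, Rplp0 1071 ± 536 and Rplp2 700 ± 416. Rpl13a and Rpl24 stayed lowest among canonical genes, at 29.7 ± 5.57 and 30.8 ± 18.5 TPM. Across the 77 canonical genes, log2 mean TPM and log2 exon length had a Pearson correlation of -0.54 (Spearman -0.61), while for the summed counts it was 0.08. These are descriptions across genes of the same libraries, and TPM contains the length.

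**Figure D2:**
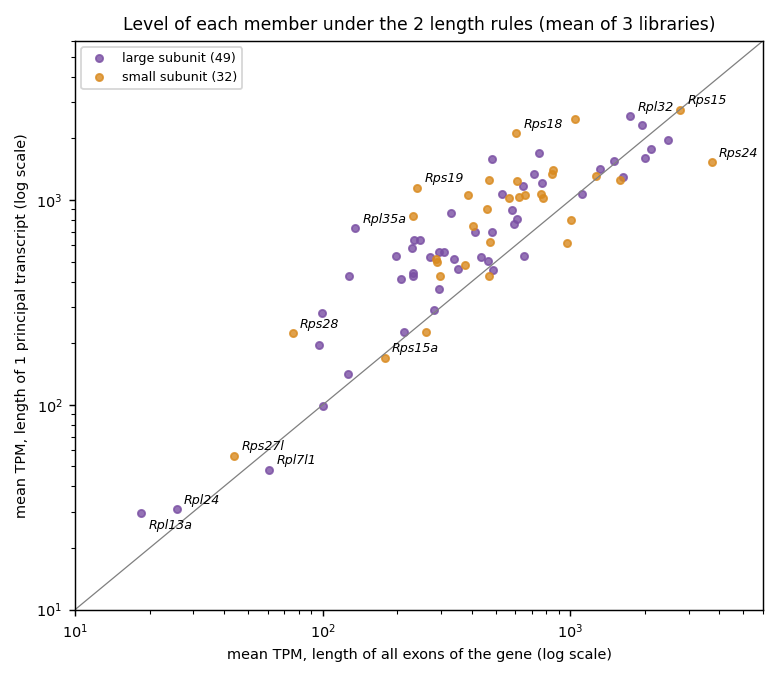
Mean TPM of each member over the 3 libraries with the length of all exons (x axis) and with that of 1 principal transcript (y axis), both on log scales, where the line marks equal values. Points above the line, such as Rps19, Rps18 and Rpl35a, have exon lengths in the files far above their principal transcript, and Rps24 lies below it.

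Sequence shared with pseudogenes was common among the members. Of the 84, 81 had at least 1 run of 50 bases in common with a pseudogene transcript, and in 24 members at least 50% of the runs were found in another gene. In the canonical genes the median was 35.8% of runs, with a range of 0 to 85.5%. Reads from such runs can map to several places, and no option was set to count those. Between the percentage of shared runs and log2 mean TPM, the Pearson correlation was 0.11 over the 77 canonical genes (Spearman 0.15). It compares different genes, and the part of shared sequence in the levels was not tested. Of the members, 30 hold snoRNA genes in their span, 58 in all, which guide the modification of ribosomal RNA. These snoRNA genes had 289 counts over all libraries.

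The subunits were compared by the median of their members. The large subunit genes had a median of 527, 171 and 300 TPM in replicates 1, 2 and 3, against 801, 259 and 488 TPM for the small subunit genes. The log2 ratio of the medians was -0.60, -0.60 and -0.70, with a mean of -0.64 ± 0.06 (SD, n = 3). The large subunit list holds 6 of the 7 paralogues, and over the canonical genes the ratio was -0.34, -0.28 and -0.31. Summed TPM went the other way, with 43276 TPM in the large and 36381 in the small subunit in replicate 1, a log2 ratio of 0.25, and log2 ratios of 0.41 and 0.38 in replicates 2 and 3. There are 46 canonical genes of the large and 31 of the small subunit, so a sum counts more genes in the large one. No test was run over the genes of the subunits.

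The replicates differed in the level of nearly all members. In TPM, replicate 1 was the highest and replicate 2 the lowest in 78 of the 81 members with 10 or more counts. The exceptions were the paralogues Rpl22l1, Rpl36al and Rpl7l1, which were lowest in replicate 3. The share of all genes with this order in TPM was not computed. Summed TPM of all protein-coding genes had the same order, at 505342, 326080 and 392835 in replicates 1, 2 and 3. So did the median of the mitochondrial ribosomal protein genes, at 17.1, 7.21 and 9.17 TPM, so the order is not particular to the members. The median ratio of replicate 1 to replicate 2 was 2.89 over the 81 genes, from 1.53 for Rpl23a to 4.53 for Rps27l, and that of replicate 3 to replicate 2 was 1.63, from 0.916 for Rpl7l1 to 4.03 for Rps29. The order of the genes was largely kept, with Pearson correlations of log2 TPM across genes of 0.98, 0.98 and 0.97 between replicates 1 and 2, 1 and 3, and 3 and 2. TPM has a fixed sum, so part of such a ratio can come from other genes.

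Counts were therefore also scaled by TMM, edgeR's trimmed mean of the ratios between libraries, and expressed as log2 deviation from the mean of the 3 libraries. Of the 84 members, 81 passed the filter on low counts, and Rpl10l, Rpl39l and Rpl3l did not. The median deviation of the members was 0.35 in replicate 1, -0.51 in replicate 2 and 0.14 in replicate 3. Over all 9469 genes tested it was 0.05, -0.01 and 0.03. In replicate 2 all 81 members tested lay below the mean, where 51.6% of all genes tested did. Replicate 2 was the lowest library in 74 of the 81 members, where it was the lowest in 36.2% of all genes tested. The medians of the canonical subunits lay close together. In replicate 2 the median was -0.52 for the 46 genes of the large and -0.51 for the 31 of the small subunit, and in replicate 1 it was 0.32 for the large and 0.38 for the small subunit.

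Other groups of genes were set beside the members as a measured background. With TMM over all genes, 4160 other unopposed protein-coding genes (no gene on the other strand of their span) had medians of 0.17, -0.10 and -0.03 in replicates 1, 2 and 3. The 180 of them at or above the members' lower quartile of level had 0.13, -0.08 and -0.01. The 211 with a principal transcript under 1000 bases, a length that most members have, had 0.27, -0.30 and 0.06. Of the 10 that met both limits, 8 were lowest in replicate 2, or 5 with TMM over unopposed genes, and the medians were 0.27, -0.30 and 0.10. The mitochondrial ribosomal protein genes had medians of 0.25, -0.20 and 0.02 over 67 genes tested. The lowest library was replicate 2 in 48.3% of the 4160 genes, 52.2% of the 180, 67.8% of the 211 and 65.7% of the 67. These shares lie above the 36.2% over all genes tested. Replicate 2 was also the lowest in 7 of the 8 T cell markers, and in 5 of them with TMM over unopposed genes. That scaling put replicate 2 lowest in 26.8% of all genes tested. Transcript length and the rRNA share moved with these deviations, and their part in the members' values was not tested. In bulk RNA, fewer cells of a type and less RNA per cell cannot be told apart.

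Under a TMM scaling over unopposed genes alone the members had medians of 0.21, -0.41 and 0.19 in replicates 1, 2 and 3, and the other unopposed protein-coding genes 0.03, -0.01 and 0.01. The 211 genes with a short principal transcript had 0.13, -0.20 and 0.11 on this scaling, and the 10 that also lay at the members' level had 0.13, -0.21 and 0.15. The mitochondrial ribosomal protein genes had 0.11, -0.11 and 0.06, so these groups deviated in the same directions as the members and by less. This scaling put the median of all genes tested at -0.09, 0.08 and 0.07, a move of more than 0.1 in replicate 1. The members below the mean in replicate 2 were then 76 of 81, where 38.8% of all genes tested were below. Replicate 2 was the lowest library in 71 of 81, where it was so in 26.8% of all genes tested. It was so in 37.1% of the other unopposed protein-coding genes and 37.2% of those at the members' level. In the 211 with a short principal transcript the share was 59.7%, and in the mitochondrial ribosomal protein genes 56.7%. Without replicate 2 the share of counts on the members was 4.89% and the median level 541 TPM, and without replicate 1 they were 3.31% and 315 TPM, against 4.12% and 436 TPM over all 3 libraries.

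**Figure D3:**
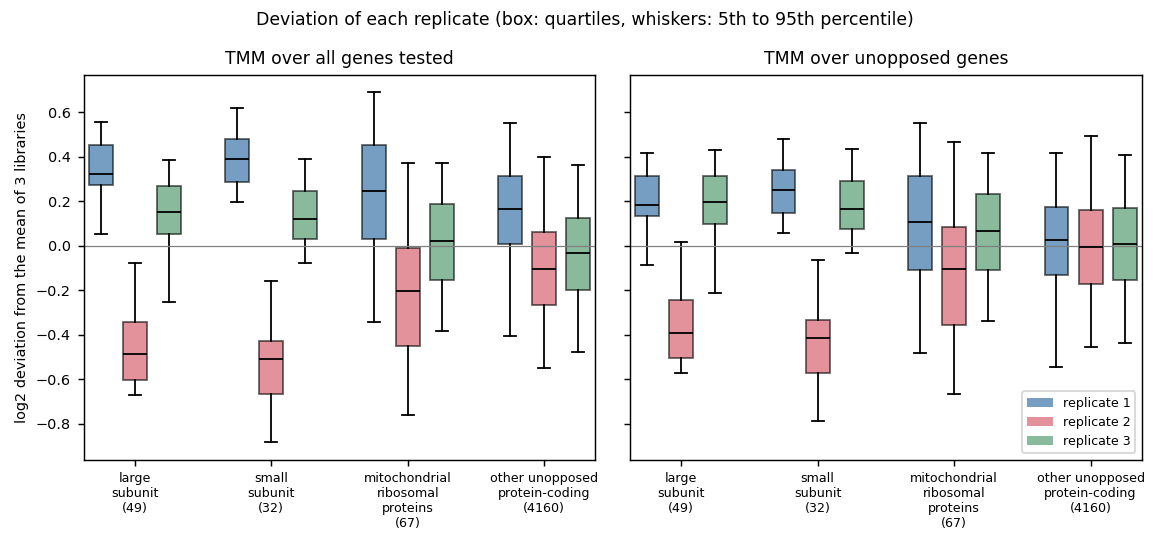
Log2 deviation of each replicate from the mean of the 3 libraries for the tested genes of the large and small subunit, the mitochondrial ribosomal proteins and the other unopposed protein-coding genes, with boxes at the quartiles and whiskers at the 5th and 95th percentiles, scaled by TMM over all genes (left) and over unopposed genes (right). The boxes of replicate 2 lie below 0 for both subunits under both scalings, at medians of -0.51 and -0.41 over all members.

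Single members were then tested for spread between the libraries beyond that of genes of like level. The test compares the edgeR deviance at the trended dispersion with a chi-square distribution, with Benjamini-Hochberg adjustment over all 9469 genes at a threshold of 0.05. It called 0 of 81 members, where it called 0.253% of all genes tested. The trend was fitted to the same 3 libraries with the members included. A shift that the members share can raise it, so the 0 cannot show that members spread no more than other genes. At an unadjusted p under 0.05 there were 3 of 81 members, Rps29, Rpl39 and Rplp2, where 6.44% of all genes tested were. DESeq2 found 0 members among its dispersion outliers, where it found 4 among all 9469 genes, too few for the 0 to be informative. Beyond counting noise alone, 80 of 81 members varied by a chi-square test with Benjamini-Hochberg adjustment, where 59.6% of all genes tested did. Without replicate 1 that number was 69, where 25.6% of the genes tested varied, without replicate 2 it was 58 (42.4%), and without replicate 3 it was 77 (47.3%). The member that did not pass with all 3 libraries was Rpl13a, at an adjusted p of 0.212 in that test with edgeR's TMM library sizes. The counting noise test calls smaller spreads as counts rise. On a log2 scale of counts scaled by library size, the median was 8.77 for the members and 4.89 over all genes tested. The shares over all genes are therefore not those of genes of like level.

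Rps29, a small zinc-binding protein of the small subunit, had 1626, 315 and 1149 counts in replicates 1, 2 and 3, or 1072, 242 and 977 TPM. Its deviations were 0.36, -1.14 and 0.79, the lowest of all members in replicate 2 and the highest in replicate 3. By edgeR's trend test the adjusted p was 0.411. In the same edgeR test fitted to 4272 unopposed genes alone, where the biological coefficient of variation was 0.201 against 0.280 over all genes, Rps29 was called at an adjusted p of 0.007, as the only member of 61 tested. That fit called 1.29% of its genes. Without replicate 1 it was also called, where 0.217% of the genes tested were, and without replicate 2 or replicate 3 edgeR called 0 members, where 0.0296% and 0.0785% of the genes tested were called. Unadjusted p-values under 0.05 were found for 12 of the 61 members in the fit of unopposed genes, where 6.30% of its genes had one. Without replicate 1 they were found for 28 of 81 members, where 4.93% of the genes tested had one. Without replicate 2 there was 1 such member, where 4.77% of genes had one, and without replicate 3 there were 0, where 6.24% had one. The number of members with such a p therefore depended on which libraries and genes entered the fit.

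Other large deviations had a different form. Rpl39, a small protein of the exit tunnel, had 1441, 308 and 295 counts, with deviations of 0.90, -0.45 and -0.45, so that replicate 1 alone stood high. The paralogues Rpl22l1, at 0.63, -0.24 and -0.40, and Rpl36al, at 0.51, -0.19 and -0.32, also stood high in replicate 1 alone. Rplp2 had deviations of 0.51, -0.98 and 0.47, and Rps19 0.54, -0.89 and 0.35, with replicate 2 alone low. Rpl27a had 0.52 and Rpl36 0.60 in replicate 3. Rpl7l1, Rpl23a and Rpl37a lay closest to the mean in replicate 2, at -0.05, -0.06 and -0.08. In replicate 1 Rpl13a, Rpl23a and Rps25, at -0.14, -0.09 and -0.03, were the 3 members below the mean, and Rps27l was at 0.80.

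Of the members, 17 were opposed, meaning that exon bases overlap those of an opposite-strand gene, 3 overlapped such a gene in their span alone and 64 were unopposed. The median level was 526, 208 and 331 TPM in replicates 1, 2 and 3 for opposed members, against 714, 234.5 and 427 TPM for unopposed members. The log2 ratio had a mean of -0.33 ± 0.14 (SD, n = 3), and on the scale of CPM, the count scaled by the library total without length, it was 0.07 ± 0.11. The summed TPM of the 17 opposed members was 14263, 6390 and 9037. A direction for this pair of groups therefore depended on the length correction.

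In 5 pairs the gene opposite carried more counts than the member in every library, and 4 of these are described. Rpl23a, opposite Tlcd1 over 506 bases, carried 4406, 2463 and 2728 counts, while Tlcd1 carried 23213, 14534 and 22664 in the same libraries. Rpl35, with 821 of its 1241 exon bases opposite Wdr38, had 1118, 323 and 617 counts, against 8470, 7506 and 7635 for Wdr38. Rpl22l1, opposite Gm33051 over 159 bases, had 772, 231 and 198 counts, against 5753, 2253 and 2556 for Gm33051. Rpl15, opposite Nkiras1 over 105 bases, had 760, 345 and 322 counts, against 2495, 1928 and 1607 for Nkiras1. In all 5 pairs, the ratio of the opposite gene to the member was lowest in replicate 1, at 5.27 for Tlcd1 to Rpl23a and 7.58 for Wdr38 to Rpl35.

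In the other pairs with more than 30 counts on the opposite gene, the member carried more. These are counts over whole genes, and counts in the shared bases were not measured. Rpl32, opposite Cand2 over 53 bases, had 5059, 2037 and 2775 counts, against 4844, 1284 and 2189 for Cand2. Rpl5, which binds 5S rRNA, had 4405, 1529 and 1996 counts with Fam69a at 694, 504 and 543, and Rps25 had 4616, 2437 and 2684 with Ccdc84 at 1373, 519 and 459. The ratio of the opposite gene to the member was lowest in replicate 1 in 12 of the 16 pairs and highest in replicate 2 in 10. Rps28 showed the widest shift, with a ratio to it of 0.0989 for Kank3 in replicate 1, 0.68 in replicate 2 and 0.195 in replicate 3. Reads in the shared bases of a pair are told apart by strand alone, so levels of these members are uncertain. The part of the opposite genes in the members' levels was not tested. Whether the strand setting fits bears on the unopposed members as well.

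**Figure D4:**
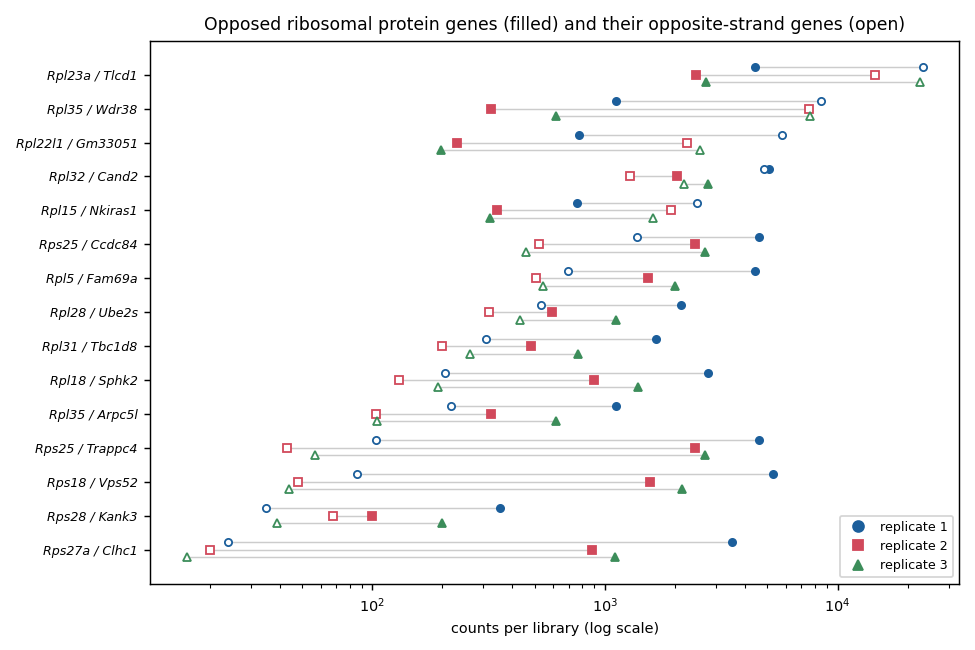
Counts per library on a log scale for opposed members (filled) and the genes opposite them (open), for pairs with more than 30 counts on the opposite gene, with 1 marker shape for each replicate. In the pairs of Rpl23a, Rpl35 with Wdr38, Rpl22l1 and Rpl15 the open markers lie to the right of the filled ones in every library.

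Of the 7 paralogues, 3 were at or near 0. Rpl10l, expressed in the testis, had 0 counts in every library, where 3 counts would equal 1.34, 1.56 and 1.73 TPM. Rpl39l, also a testis gene, had 4, 0 and 0 counts and Rpl3l, a gene of heart and skeletal muscle, 2, 3 and 1. Their canonical partners Rpl10, Rpl39 and Rpl3 had 3626, 2044 and 5789 counts over the 3 libraries. Rpl39l over Rpl39 was 0.00338 per exon base (95% exact interval 0.000919 to 0.00866) and Rpl3l over Rpl3 was 0.00197 (0.000722 to 0.00429), which rest on 4 and 6 counts.

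The other 4 paralogues were well expressed. Rpl22l1 had 177, 61.9 and 58.6 TPM in replicates 1, 2 and 3, against 205.5, 60.8 and 112.9 TPM for Rpl22, a protein that mouse alpha-beta T cell development needs. Its TPM was 86.3%, 101.8% and 51.9% of that of Rpl22, or 80.0% ± 25.5 (SD, n = 3). With the length of 1 principal transcript, 552 bases for Rpl22l1 and 2051 for Rpl22, it was 219%, 259% and 132%, or 203% ± 64.8, so which of the 2 genes was higher depended on the length used. Rpl36al stood at 40.1% ± 10.1 of Rpl36a, at 48.0%, 43.5% and 28.7%. Rpl7l1 stood at 9.57% ± 0.972 of Rpl7, and Rps27l, a p53 target in human cells, at 3.88% ± 0.992 of Rps27. With the principal transcript these stood at 30.1% ± 7.60, 4.14% ± 0.42 and 2.10% ± 0.536 in the same order (SD, n = 3), below their partners under both lengths. Rpl22l1 is an opposed gene and Rpl7l1 overlaps one in its span.

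**Figure D5:**
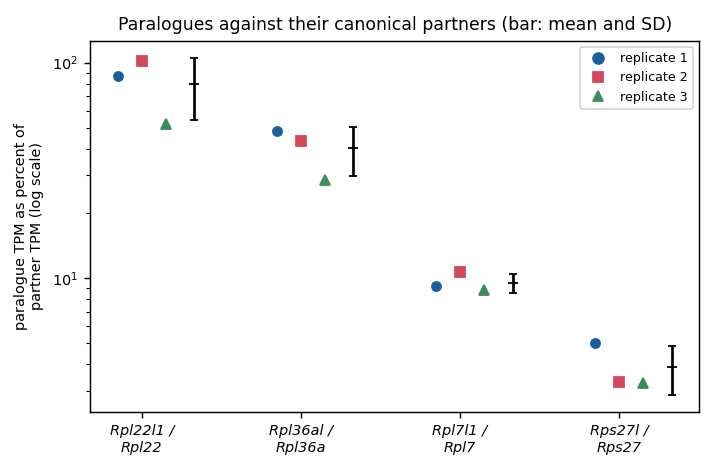
TPM by exon length of 4 paralogues as a percentage of that of their canonical partners, on a log axis, with 1 marker for each replicate and a bar for the mean and SD over the 3 libraries. Rpl22l1 reaches 51.9% to 101.8% of Rpl22, against 132% to 259% by principal transcript length, and Rps27l 3.29% to 5.03% of Rps27.

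The companion genes of the ribosomal protein programme showed the same replicate order in most cases. Fau and Rack1 encode ribosomal proteins under other names. Fau had 1439.7, 393 and 890.4 TPM in replicates 1, 2 and 3, and Rack1 had 477, 172 and 247 TPM. Of 14 translation genes with TOP mRNAs the highest were Eef1a1, the elongation factor that delivers aminoacyl-tRNA, with 3122 ± 1107 TPM, Tpt1 with 1668 ± 734 and the nucleolar protein Npm1 with 848 ± 247 (SD, n = 3). Replicate 2 was the lowest library in 13 of these 17 genes by TMM, where it was so in 36.2% of all genes tested, and the medians were 0.22, -0.42 and 0.05. With TMM over unopposed genes it was the lowest in 12 of the 17, where it was so in 26.8% of all genes tested. By edgeR's trend test 0 of the 17 were called, where 0.253% of all genes were, with 0 at an unadjusted p under 0.05, where 6.44% of all genes were. DESeq2's dispersion outliers held 0 of the 17, and 4 of all 9469 genes tested.

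Genes that control TOP mRNAs and chaperones of ribosomal proteins were lower. Among 11 control genes Myc, the transcription factor of growth, had 382 ± 144 TPM, Larp1 80.2 ± 21.9 and Eif4e, the cap-binding factor, 22.4 ± 7.86 (SD, n = 3). Replicate 2 was the lowest in 6 of the 10 tested by TMM, where it was so in 36.2% of all genes tested. With TMM over unopposed genes it was the lowest in 3 of the 10, where it was so in 26.8% of all genes tested. Of the 6 chaperones Ltv1, an assembly factor of the small subunit, had 67.4 ± 25.03 TPM, Bccip 54.8 ± 13.2 and Grwd1 46.4 ± 22.4. By TMM 4 of 6 were lowest in replicate 2, or 2 of 6 with TMM over unopposed genes, beside the same shares over all genes. The counts of 3 of 10 and 2 of 6 lie near the 26.8% over all genes. By edgeR's trend test 0 of these 16 genes were called, where 0.253% of all genes were, with 0 at an unadjusted p under 0.05, where 6.44% of all genes were. DESeq2's dispersion outliers held 0 of the 16, and 4 of all 9469 genes tested. With so few genes listed, these counts of 0 lie near the share over all genes.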

How the data were processed

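RNA was sequenced from 3 Th1 libraries. The authors deposited counts per gene with no normalization. Per the file headers, featureCounts 1.4.6-p4 counted read pairs over exons of GENCODE vM13 with both reads aligned and strand setting 1, and the labels name mm10. The assay is total RNA-seq per the labels, which link a library protocol named for poly(A)+ RNA. Here, TPM and CPM were computed from the deposited counts and the files' exon lengths. Symbols came from a later GENCODE release (50376 of 50600 genes, 99.6%). Opposed genes were found with bedtools 2.31.1. Spread was tested with edgeR 4.0.16 in R 4.3.3 (TMM, intercept-only, filterByExpr at a minimum count of 10, prior count 0.5), with 2 degrees of freedom, one-sided, Benjamini-Hochberg over all genes. DESeq2 1.42.0 was the alternative. The tests were tested on simulated data. With 1 group, no groups were compared. Named genes are the 5 highest and 5 lowest of each subunit, the 3 largest deviations in each direction and library, opposed members with over 30 opposite counts, paralogues with partners, the stalk genes and Rpsa, and the highest companions. Rpl35a and the 8 genes whose sequence is printed were chosen after their values were seen. The members and lists were chosen with earlier results of these data known. Some genes enter the counts and medians and are not reported here singly or drawn by name.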

Additional observations from a re-analysis of the deposited data

How the results depend on the processing

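Of 85 values recomputed under alternatives, 68 kept their direction and moved by less than the spread of the reported value. Of 14 counts of members, 12 lay within 1.5 times the reported count. The 68 include the means over the libraries recomputed without 1 replicate. Leaving out 1 of 3 values cannot move their mean by as much as their SD, so those could not exceed the limit. The median level of the members was 315, 541 and 452 TPM without replicates 1, 2 and 3 in turn. Members beyond counting noise, 80 of 81 as reported, were 58 to 77 when 1 replicate was left out. No paired analysis was possible because the 3 libraries form 1 group. The median level of the members was 680 TPM with the length of 1 principal transcript, against 436 TPM as reported. The log2 ratio of large to small subunit medians, -0.64 as reported, was -0.56 on CPM, -0.31 without the paralogues, -0.52 over members with 10 or more counts, -0.29 over unopposed members and -1.04 as a difference of mean log2(TPM + 0.1), and it reversed to 0.35 on summed TPM. The median deviation of replicate 1 was 0.59 with library totals only, against 0.35. The number of members beyond the dispersion trend was 0 as reported, 1 in a fit of unopposed genes, and 0 to 1 when 1 replicate was left out. The log2 ratio of opposed to unopposed members, -0.33 as reported, was -0.48 with any span overlap and -0.50 with the principal transcript, and it reversed to 0.071 on CPM with no length correction. The log2 ratio of Rpl22l1 to Rpl22, -0.38 as reported, was -0.93 on CPM and reversed to 0.97 with the principal transcript. That of Rps27l to Rps27, -4.72 as reported, was -5.07 on CPM and -5.60 with the principal transcript, which also gave -4.60 for Rpl7l1 to Rpl7, against -3.39, and -1.77 for Rpl36al to Rpl36a, against -1.35. The principal transcript length, and the opposed ratio without paralogues, were chosen after the data were seen. Apart from construction (other genes or another length), the cause was not tested. With 2950658 to 4442901 counts a library, genes near 3 counts cannot be ranked.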
